A study of Rattus norvegicus with 8 samples.

Results

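Fibrocartilage genes and the lubricin gene were examined in rat Achilles tendon at rest and directly after running. The group was set by gene name, as Acan, Col2a1, Col10a1, Sox9, Comp, Chad, Cilp, Cilp2, Matn3 and Prg4, and every row of the expression table with one of these symbols was taken. Of the 10 genes, 9 had a row among the 15590 genes of the table, and these 9 were also among the 13863 genes expressed well enough to be tested. The expression of Matn3, which encodes a matrilin of the cartilage matrix, was not analysed here, and the gene enters below through its promoter window alone.

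The 8 libraries were made from polyA RNA of Achilles tendons from the right legs of WT rats, and the methods of the study give male Sprague-Dawley rats of 8 to 10 weeks. The 4 libraries of the 0 h p.r. (post-run) group came from rats that ran on a treadmill for 1 h and were then sacrificed at once, and the 4 of the naïve control (NC) group from rats that did not run. The labels number the libraries of a group as replicates without saying whether each is 1 animal, so the p-values measure the spread between these libraries. The RNA is that of a tissue with several cell types, so fewer cells of a type and less RNA per cell cannot be told apart in any of the values below. Levels are FPKM, that is fragments scaled to the length of the gene and by a factor for each library that the authors set, a scale on which genes of different length can be compared. The depth, as reads recovered from the table, ranged from 10660131 in NC replicate 2 to 17464752 in 0 h p.r. replicate 4. The tenocyte markers Tnmd, Scx, Mkx, Fmod, Thbs4, Kera and Col1a1 were detected in every library. Their summed level was 2758 to 5627 FPKM in NC and 2521 to 5203 FPKM in 0 h p.r., so the ranges overlapped.

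Fibrocartilage is the part of a tendon that resists compression. In the Achilles tendon it lies where the tendon enters the heel bone and where it presses against it, and its rounded cells make a matrix rich in type II collagen and aggrecan next to the type I collagen of the tendon proper. Sox9 is the transcription factor that drives cartilage matrix genes, type X collagen marks calcifying cartilage, and lubricin, the product of Prg4, coats surfaces that glide over each other.

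The start regions of the genes are shown first, since the genes of the group differ there in a feature that was read without their expression values. RefSeq promoter windows on the GRCr8 build, running from 250 bases before to 50 bases after a gene start, were found by symbol for 8 of the 10 genes, and those of Col2a1 and Sox9 were not used here. Each window was searched on both strands for TATAAA, the letters of a TATA box, and for ACAAAG and ACAATG, letters of the kind that SOX proteins bind. TATAAA was present in 3 of the 8 windows (37.5%), against 14.2% of all 33469 windows. The 3 genes were Col10a1, Chad and Prg4, and the match began 31, 29 and 25 bases before the start. ACAAAG or ACAATG was present in 2 of the 8 windows (25%), those of Col10a1 and Prg4, against 29.1% of all windows. The base composition also differed, from 39.3% G and C in Prg4 to 73% in Acan, with a median of 51.7% over all windows. The bases from 70 before to 30 after the start are printed for the 3 genes with a TATAAA match, where capitals mark the match, and for Acan and Comp without one. They lie at chr20:39737466-39737565 on the plus strand (Col10a1), chr10:80008975-80009074 plus (Chad), chr13:65054196-65054295 minus (Prg4), chr1:142390881-142390980 plus (Acan) and chr16:19089519-19089618 minus (Comp). In Prg4 the match is on the opposite strand and reads TTTATA. These matches describe letters only.
Col10a1: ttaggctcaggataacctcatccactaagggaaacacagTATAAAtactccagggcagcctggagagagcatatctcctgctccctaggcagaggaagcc
Chad: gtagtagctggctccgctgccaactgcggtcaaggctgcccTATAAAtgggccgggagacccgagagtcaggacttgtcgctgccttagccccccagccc
Prg4: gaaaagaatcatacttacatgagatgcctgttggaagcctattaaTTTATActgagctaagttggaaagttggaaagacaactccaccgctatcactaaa
Acan: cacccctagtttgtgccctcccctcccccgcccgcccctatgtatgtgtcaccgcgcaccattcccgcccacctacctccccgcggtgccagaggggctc
Comp: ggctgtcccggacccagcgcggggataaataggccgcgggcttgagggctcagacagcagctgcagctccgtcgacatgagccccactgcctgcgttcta

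At rest the 9 genes covered a wide range of levels. Chad was the most abundant, with a mean of 1342 ± 238 FPKM in NC (SD, n = 4), which placed it at rank 45 of the 15590 genes. Comp followed at rank 95, Prg4 at rank 204, Cilp2 at rank 259 and Cilp at rank 1106. The genes that mark cartilage itself were far lower, with Col2a1 at rank 3748, Acan at rank 4328, Col10a1 at rank 6305 and Sox9 at rank 9124. In this order the NC libraries of Chad lay above those of Comp, those of Comp above those of Prg4 and those of Cilp2 above those of Cilp, without overlap. The ranges of Cilp and Col2a1 overlapped between libraries, but Cilp was the higher within each NC library. Acan and Col2a1 were likewise each above Col10a1 within each NC library. Within libraries the order was mixed for Prg4 and Cilp2, for Col2a1 and Acan, and for Col10a1 and Sox9, so these neighbours did not differ beyond their spread. In 0 h p.r. the order of the means was the same for all 9 genes.

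The comparison of 0 h p.r. with NC asked whether these genes differed after running. The genes were chosen with earlier results of these data known, so the shares below are descriptions and no test of the group. The mean of the log2 values was higher in 0 h p.r. for all 9 genes, against 49.9% of all tested genes. The median log2 fold change was 1.22 over the 9 and -0.0014 over all tested genes. No gene of the group passed both thresholds used here, an adjusted p under 0.05 in limma together with a fold of at least 2. Over all tested genes, 1.80% passed as higher and 0.894% as lower. At an unadjusted p under 0.05 in limma, 6 of the 9 genes were higher in 0 h p.r., against 11.4% of all tested genes. In voom, limma's method for counts, run on the recovered reads, none of the 9 passed either, against 2.59% of all genes tested that way.

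**Figure D1:**
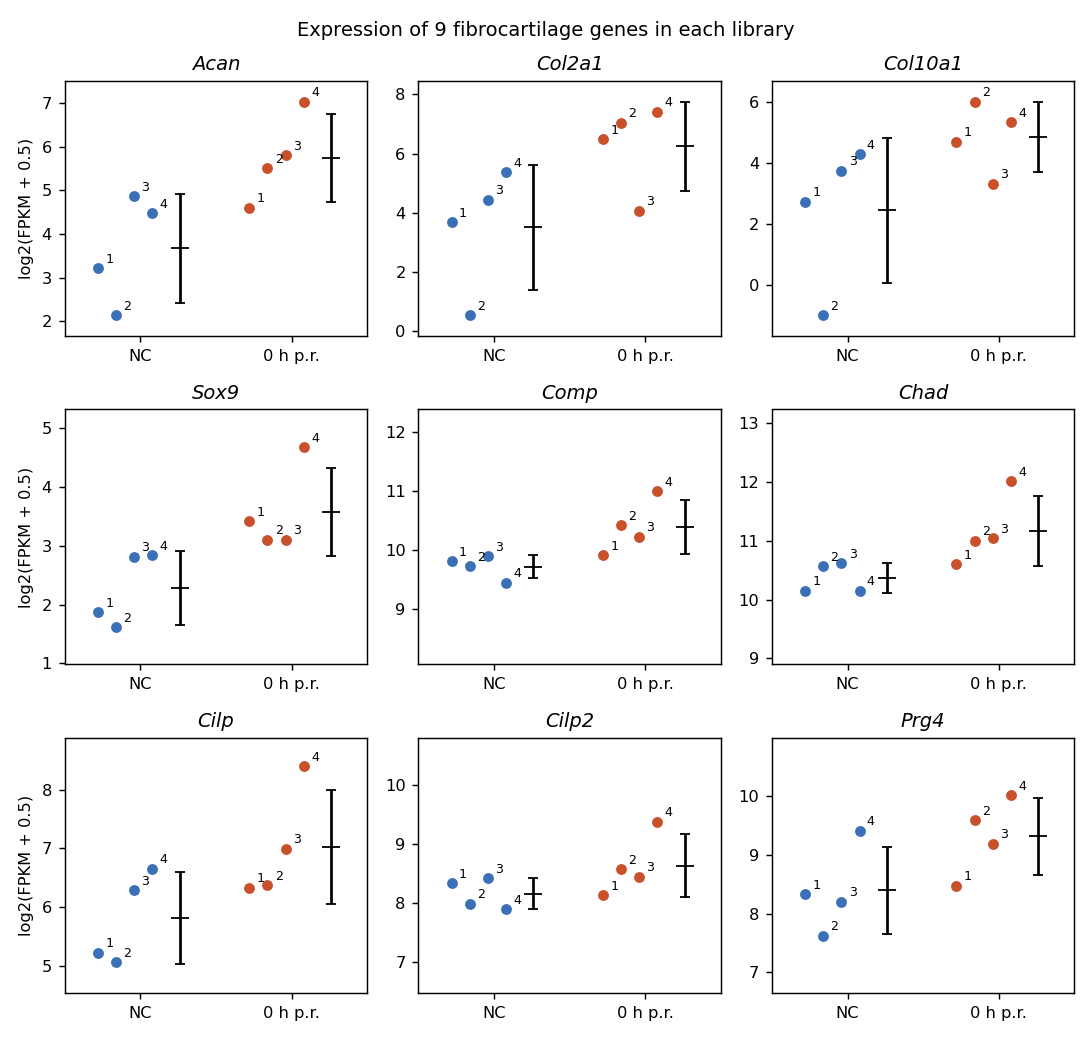
Level of each of the 9 genes in each library, as log2(FPKM + 0.5), with NC in blue and 0 h p.r. in orange and the replicate number beside each point. The bar to the right of each group is its mean ± SD (n = 4), and the vertical scale differs between panels. Sox9 and Comp are the genes whose groups do not overlap, and 0 h p.r. replicate 4 is the highest library in every panel other than that of Col10a1.

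Sox9 (ENSRNOG00000002607), the cartilage transcription factor, was measured at 3.16, 2.57, 6.51 and 6.64 FPKM in NC replicates 1 to 4. In 0 h p.r. replicates 1 to 4 it was at 10.2, 8.09, 8.08 and 25.1 FPKM. The groups were separate, with 1.43 FPKM between the nearest libraries, and every post-run value was the higher. The log2 fold change was 1.29 (SE 0.41, 95% interval 0.37 to 2.22, limma adjusted p 0.10). Replicates 2 and 3 of 0 h p.r. lay close to the upper NC libraries, and replicate 4 stood far above the other 3. Without replicate 4 the log2 fold change was 0.92 (limma adjusted p 0.111).

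Col2a1 (ENSRNOG00000058560) encodes type II collagen, the fibril collagen of cartilage. It was at 12.3, 0.934, 21.1 and 40.6 FPKM in NC and at 88.6, 131, 16.2 and 171 FPKM in 0 h p.r. The groups overlapped, because 0 h p.r. replicate 3 lay below NC replicates 3 and 4 while the other 3 libraries of 0 h p.r. lay above all of NC. NC replicate 2 was low, with 42 recovered reads against 996 to 2742 in the other NC libraries. The log2 fold change of 2.75 was the largest of the group and had the interval 0.37 to 5.13 (SE 1.05, limma adjusted p 0.161). For Col2a1, leaving out NC replicate 2 gave 1.76 (limma adjusted p 0.225), and leaving out replicate 3 of 0 h p.r. gave 3.48 (0.119). Its log2 fold change was 3.37 without NC replicate 4 (0.123) and 1.88 with array weights (0.147).

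Col10a1 (ENSRNOG00000051399), for the type X collagen of calcifying cartilage, was at 6.09, 0, 12.9 and 19.0 FPKM in NC. In 0 h p.r. it was at 25.2, 63.7, 9.47 and 39.4 FPKM. Its libraries were ordered much like those of Col2a1, with NC replicate 2 lowest and 0 h p.r. replicate 3 below NC replicates 3 and 4. In NC replicate 2 no read was recovered, which allows a level of up to 0.148 FPKM at the floor of 3 reads, a limit that covers counting error only. The log2 fold change was 2.39 (SE 1.08, interval -0.04 to 4.82, limma adjusted p 0.228) and was 1.25 without NC replicate 2 (adjusted p 0.274). It was 3.01 without NC replicate 4, 2.99 at a pseudocount of 0.1, 3.15 in voom and 1.58 with array weights, and passed in none of these (adjusted p 0.169 to 0.295). In the 7 libraries where both were detected, Col2a1 was 1.63 to 4.34 times as abundant as Col10a1, whereas the ratio of Col2a1 to Acan ran from 0.240 to 3.72 over all 8.

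Acan (ENSRNOG00000028992) encodes aggrecan, the proteoglycan whose charged chains hold water in cartilage. It was at 8.82, 3.90, 28.5 and 21.8 FPKM in NC and at 23.8, 44.8, 55.4 and 130.1 FPKM in 0 h p.r. The groups overlapped by 1 library, 0 h p.r. replicate 1, which lay below NC replicate 3. With a log2 fold change of 2.06 (SE 0.65, interval 0.59 to 3.53), aggrecan had the lowest limma adjusted p of the group, 0.0998. Leaving out single libraries moved the log2 fold change between 1.55 and 2.46, lowest without NC replicate 2, and the limma adjusted p between 0.0872 and 0.227.

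Comp (ENSRNOG00000048472) encodes cartilage oligomeric matrix protein, a glycoprotein that binds collagen fibrils in tendon as well as in cartilage. It was at 897, 845, 953 and 697 FPKM in NC and at 964, 1370.1, 1200.0 and 2046 FPKM in 0 h p.r. The groups did not overlap, but the lowest library of 0 h p.r. lay only 10.9 FPKM above the highest of NC. Its log2 fold change was 0.67 (SE 0.26, interval 0.08 to 1.26, limma adjusted p 0.167) and was 0.47 without 0 h p.r. replicate 4. Groups that did not overlap, higher in 0 h p.r., were found for 2 of the 9 genes, Comp and Sox9, and for 8.15% of all tested genes.

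Chad (ENSRNOG00000003304) encodes chondroadherin, a leucine-rich protein through which cells attach to cartilage matrix. It was at 1138, 1518, 1574 and 1136 FPKM in NC and at 1558, 2048, 2106 and 4132 FPKM in 0 h p.r. Replicate 1 of 0 h p.r. lay 16.2 FPKM below the highest NC library, and the other 3 lay above all of NC. Its log2 fold change was 0.79 (SE 0.33, interval 0.05 to 1.54, limma adjusted p 0.197), and it was 0.51 without 0 h p.r. replicate 4 (adjusted p 0.275). The ratio of Chad to Comp was 1.27 to 2.02 over the 8 libraries, with medians of 1.64 in NC and 1.69 in 0 h p.r.

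The cartilage intermediate layer proteins, encoded by Cilp and Cilp2, are secreted glycoproteins of cartilage and tendon. Cilp (ENSRNOG00000029911) was at 36.9, 33.1, 77.9 and 100.3 FPKM in NC and at 80.2, 82.7, 127 and 336 FPKM in 0 h p.r. Replicates 1 and 2 of 0 h p.r. lay between NC replicates 3 and 4, so the groups overlapped (log2 fold change 1.22, SE 0.51, interval 0.06 to 2.37, limma adjusted p 0.200). Without 0 h p.r. replicate 4 the log2 fold change was 0.76 (adjusted p 0.272). Cilp2 (ENSRNOG00000020622) was at 321, 253, 342 and 237 FPKM in NC and at 279.9, 379, 347 and 665 FPKM in 0 h p.r. Only replicate 4 of 0 h p.r. was well above the NC range, and replicate 1 lay within it. The log2 fold change of Cilp2 was 0.47, the smallest of the group, with an interval that included 0 (SE 0.27, -0.13 to 1.08, limma adjusted p 0.341). It was 0.22 without 0 h p.r. replicate 4 (adjusted p 0.521). Cilp2 was the more abundant of the pair in each library, by 1.98 to 8.70 times, with medians of 6.02 in NC and 3.11 in 0 h p.r.

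Prg4 (ENSRNOG00000002385), the lubricin gene, was at 321, 197, 294 and 679.9 FPKM in NC. In 0 h p.r. it was at 355, 769, 581 and 1029.7 FPKM. NC replicate 4 stood above the other NC libraries and above replicates 1 and 3 of 0 h p.r., so the groups overlapped. For Prg4 the log2 fold change was 0.92 (SE 0.42, interval -0.03 to 1.88, limma adjusted p 0.237). It was 1.26 without NC replicate 4 (adjusted p 0.103) and 0.67 without NC replicate 2 (adjusted p 0.362).

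**Figure D2:**
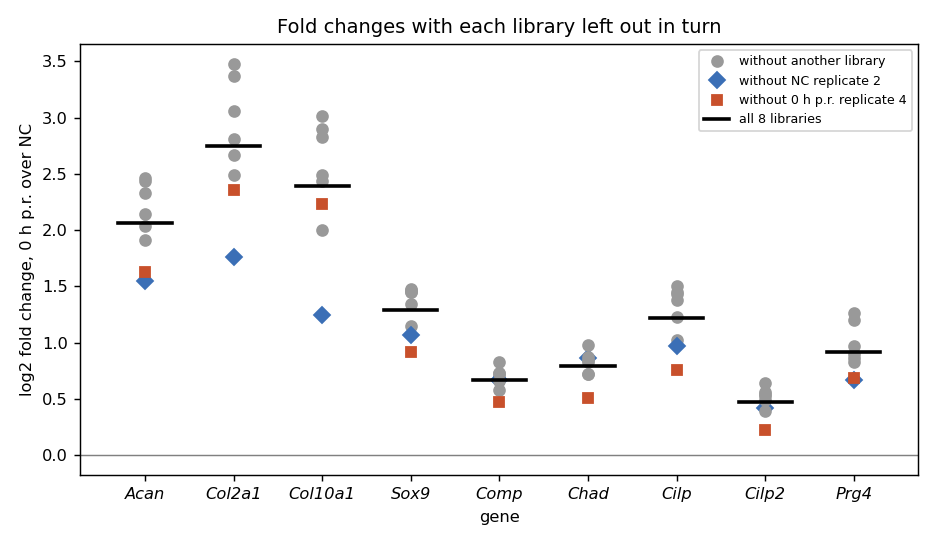
Log2 fold change of each gene between 0 h p.r. and NC with all 8 libraries (line) and with each library left out in turn (points), on the log2(FPKM + 0.5) scale. All values are above 0, and those of Col2a1 and Col10a1 are lowest without NC replicate 2, at 1.76 and 1.25.

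The spread within a group set the 9 genes apart from each other. In NC the SD of the log2 values was 0.20 for Comp, 0.26 for Chad and 0.26 for Cilp2, whereas it was 1.24 for Acan, 2.1 for Col2a1 and 2.38 for Col10a1. The highest NC library had 1.37 times the lowest for Comp and 43.5 times the lowest for Col2a1. NC replicate 2 was the lowest for Col2a1 and Col10a1, at 0.934 and 0 FPKM. The other NC libraries lay at 12.3 to 40.6 FPKM for Col2a1 and 6.09 to 19.0 FPKM for Col10a1. Within 0 h p.r. the same ratio was 2.12 for Comp, 2.38 for Cilp2, 2.65 for Chad and 10.6 for Col2a1. Prg4 was abundant at rest and still varied, with an SD of 0.75, while Sox9, the lowest of the 9, had an SD of 0.63.

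Single libraries held a like place for many of the genes. Replicate 4 of 0 h p.r. was the highest library for 8 of the 9 genes and the second highest for Col10a1. Against the NC mean its median log2 ratio over the 9 genes was 2.40, compared with 0.52, 0.82 and 0.79 in replicates 1 to 3. NC replicate 2 was the lowest library for 6 genes, and NC replicate 4 was the lowest for the other 3, Comp, Chad and Cilp2. In NC replicate 4 Col2a1, Col10a1, Sox9, Cilp and Prg4 were at their highest of the NC libraries, while Acan was highest in NC replicate 3. The tenocyte markers had their lowest NC sum in NC replicate 4. The 9 genes together took 0.317% to 0.570% of all FPKM in NC, lowest in NC replicate 2, and 0.454%, 0.849%, 0.686% and 1.48% in 0 h p.r. replicates 1 to 4. This share depends on the total FPKM of a library, which was highest in NC replicate 2 (900138). As a sum, the 9 genes were at 2744 to 3309 FPKM in NC, lowest in NC replicate 1. In 0 h p.r. the sum was 3385 to 8575 FPKM, so the sums did not overlap.

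**Figure D3:**
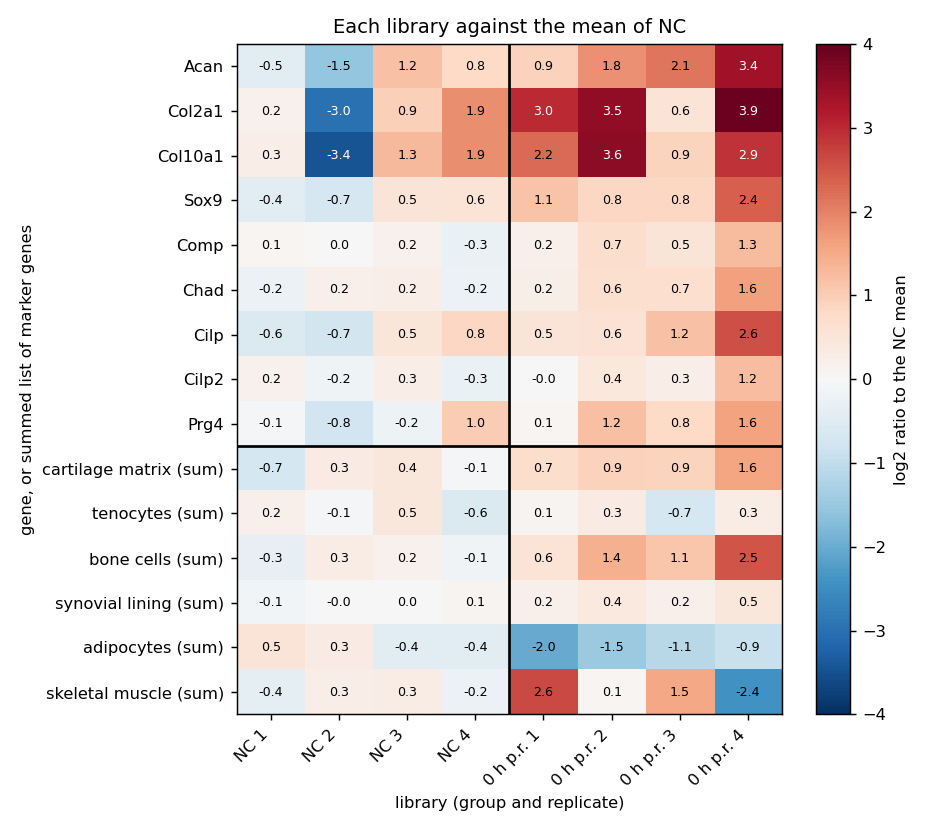
Log2 ratio of each library to the mean of the NC libraries, for the 9 genes (upper rows) and for the summed FPKM of marker lists (lower rows), with NC to the left of the vertical line. Replicate 4 of 0 h p.r. is highest for 8 of the 9 genes and for the summed bone cell markers (2.51), and it is lowest for the summed skeletal muscle markers (-2.43).

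NC replicate 2 also stood apart in measures other than these genes. It had the fewest recovered reads, and 31.1% of its FPKM came from 13 protein-coding mitochondrial genes, against 16.3% to 21.9% in the other 7 libraries. Replicate 4 of 0 h p.r. was near replicate 2 of its group in both, with 17464752 against 17044547 reads and 16.3% against 17.8%. Its array weight in limma, which is lower for a library that departs more from its group, was 0.566 against 1.77. That was the lowest after NC replicate 2, at 0.238. Without NC replicate 2 and replicate 4 of 0 h p.r. together, the log2 fold changes were 1.12 for Acan, 1.36 for Col2a1, 1.08 for Col10a1, 0.70 for Sox9, 0.47 for Comp, 0.57 for Chad, 0.51 for Cilp, 0.17 for Cilp2 and 0.43 for Prg4. All 9 were still above 0, and none passed (limma adjusted p 0.111 to 0.568).

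Variation between libraries was compared among the genes after the mean of each group was subtracted, so that the difference between the groups did not enter. These values describe 8 libraries and carry no test. Pearson's r was above 0 for 35 of the 36 pairs, with a median of 0.609. It was 0.974 between Comp and Cilp2 (Spearman's rho 1.00), 0.962 between Col2a1 and Col10a1 (rho 0.905), 0.930 between Sox9 and Cilp (rho 0.786) and 0.903 between Acan and Cilp (rho 0.952). Without the 2 libraries farthest from the median of the first gene named, these values were 0.888, 0.831, 0.760 and 0.839. The lowest values were those of Col2a1 and Chad (r = 0.0402) and of Col10a1 and Chad (r = -0.0645). Over all pairs the median was 0.286 without such libraries, and 29 of the 36 were above 0. With the gene that set the libraries named first, Chad and Prg4 went from 0.319 to -0.711, Comp and Prg4 from 0.360 to -0.585, and Cilp2 and Prg4 from 0.424 to -0.294. Comp and Cilp went from 0.514 to -0.501, Chad and Cilp from 0.650 to -0.113, and Acan and Col2a1 from 0.649 to -0.0259. Other pairs went up, such as Acan and Chad, from 0.537 to 0.793, and Col2a1 and Chad, from 0.0402 to 0.413.

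Among the tested genes outside the group, the libraries of Acan were followed most closely by Zfp574 (r = 0.989), Meltf (r = 0.986) and B4galnt3 (r = 0.982). Those of Col2a1 were followed by Dusp18, Cep95 and Xkr8 (each r = 0.986), those of Comp by Twsg1 (0.991), Fads1 (0.979) and Pxylp1 (0.969), and those of Prg4 by Mamdc4 (0.976), Rbm5 (0.972) and Atf6b (0.968). Likeness was Pearson's r over 8 libraries with group means subtracted, and these are the highest of the values over all tested genes. Meltf, a membrane-bound transferrin relative, had mean levels of 2.83 FPKM in NC and 13.1 FPKM in 0 h p.r. (limma adjusted p 0.161).

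Other genes of cartilage were read from lists set by known role, though with earlier results of these data known. Counts from these lists and from those further below are therefore descriptions and no test. Of 15 further cartilage matrix genes, 14 had a row and 10 were tested, of which 8 had a higher mean in 0 h p.r. The median log2 fold change of the 10 was 1.00. Mia and Col9a3 passed both thresholds as higher and none passed as lower, so 2 of 10 passed as higher, against 1.80% of all tested genes. Mia, which encodes a small secreted protein of cartilage, rose from 1.48, 0.531, 0.239 and 0.707 FPKM in NC to 2.24, 3.58, 2.46 and 3.01 FPKM in 0 h p.r. (log2 fold change 1.50, SE 0.29, limma adjusted p 0.0232). Col9a3, for a chain of the type IX collagen that decorates type II fibrils, rose from 1.19, 1.19, 1.20 and 2.57 to 4.83, 6.75, 2.49 and 7.90 FPKM, with groups that overlapped slightly (log2 fold change 1.51, SE 0.34, limma adjusted p 0.0377). Both calls were sensitive to single libraries. With single libraries left out in turn, Mia was called in 5 of 8 fits and Col9a3 in 2 of 8. The highest limma adjusted p was 0.0835 for Mia and 0.115 for Col9a3, in either case when replicate 2 of 0 h p.r. was absent. In voom neither passed (adjusted p 0.0640 and 0.0712), nor did they without NC replicate 2 and replicate 4 of 0 h p.r. together (limma adjusted p 0.0598 and 0.0867).

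On the log2(FPKM + 0.5) scale the largest log2 fold change in this list was that of Hapln1, which was not called. In voom those of Snorc (1.94), Mia (1.93) and Col9a3 (1.73) were larger than that of Hapln1 (1.63). Hapln1 encodes the link protein that fixes aggrecan to hyaluronan. It was at 5.93 ± 3.69 FPKM at rest and 19.4 ± 12.8 FPKM after running (log2 fold change 1.63, limma adjusted p 0.0935). Snorc, a proteoglycan of cartilage, had a log2 fold change of 1.51 (adjusted p 0.240). Clec3a, a lectin of cartilage, was abundant, at 733 ± 254 FPKM at rest and 1617 ± 513 FPKM after running, with groups that did not overlap (log2 fold change 1.17, limma adjusted p 0.0744). Col11a1 and Col11a2, which encode chains of the type XI collagen inside type II fibrils, had log2 fold changes of 0.16 (interval -0.41 to 0.74) and -0.01 (-0.84 to 0.83). The other chains of type IX collagen, Col9a1 and Col9a2, were under the filter, with means of at most 0.557 FPKM.

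**Figure D4:**
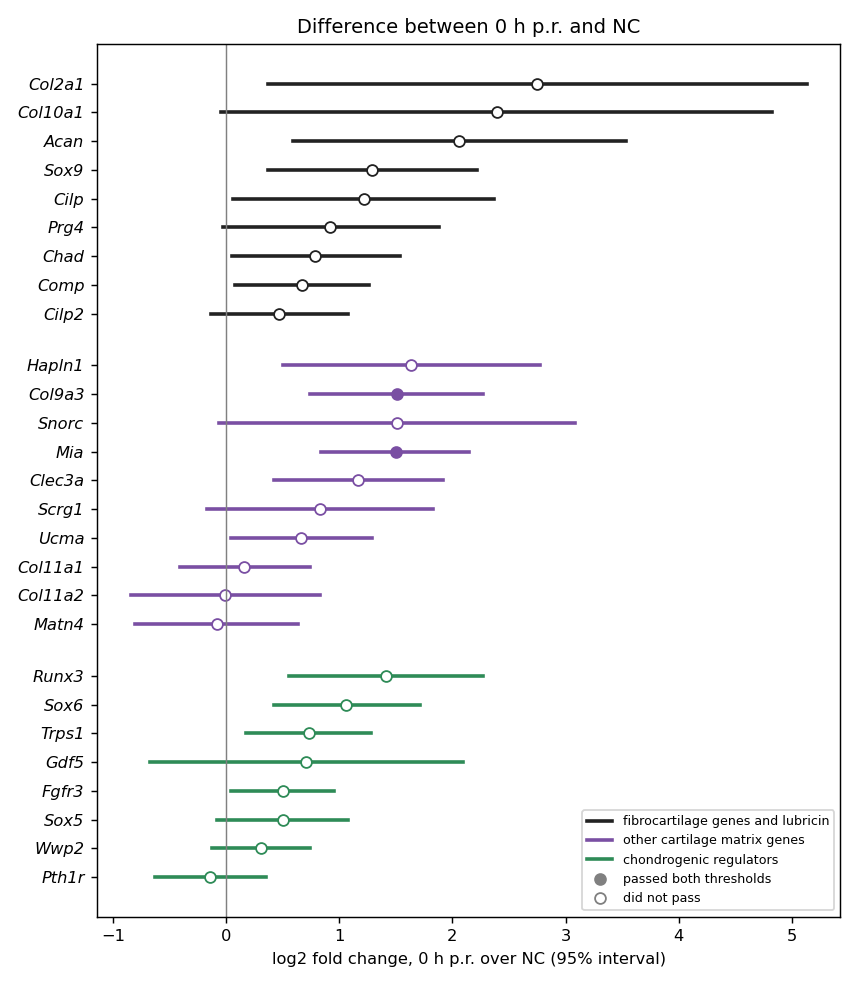
Log2 fold change between 0 h p.r. and NC with its 95% interval from limma, for the 9 fibrocartilage genes and lubricin, the 10 further cartilage matrix genes and the 8 chondrogenic regulators that were tested. Filled points passed both thresholds, which were Mia and Col9a3 alone, and the grey line marks no difference.

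Of 13 regulators of cartilage formation, 11 had a row and 8 were tested. For 7 of the 8 the post-run mean was the higher, the median log2 fold change was 0.60, and none passed in limma or in voom. At an unadjusted p under 0.05 in limma, 4 of the 8 were higher, against 11.4% of all tested genes. The largest difference was that of Runx3, a transcription factor of maturing cartilage (log2 fold change 1.41, limma adjusted p 0.0626). It was at 0.50 ± 0.344 FPKM at rest and 2.26 ± 1.27 FPKM after running. In NC it had 2 to 16 reads and reached 0.5 FPKM in replicates 1 and 4 alone. Runx3 thus met the filter only with the help of 0 h p.r., the group where it was higher. No conclusion is drawn from its p-value, its rank or its place in the counts above. Sox6, a partner of Sox9, was at 1.82 ± 0.523 and 4.51 ± 1.83 FPKM with groups that did not overlap (log2 fold change 1.06, adjusted p 0.0630). Trps1 and Gdf5 followed, with log2 fold changes of 0.73 and 0.71 (adjusted p 0.115 and 0.556). Sox5, the other Sox9 partner, had a log2 fold change of 0.50 (interval -0.08 to 1.08, limma adjusted p 0.291).

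Markers of other tissues were read in the same libraries. All 7 tested bone cell markers of 9 had a higher post-run mean (median log2 fold change 1.56), and none passed both thresholds in limma. At an unadjusted p under 0.05 in limma, 6 of them, Phex included, were higher, against 11.4% of all tested genes. Phex, an osteocyte gene, had a limma adjusted p of 0.0243 at a fold of 1.78 and was the 1 marker that passed in voom. It met the filter of 0.5 FPKM in 4 libraries only through 0 h p.r., the group where it was higher. In NC it was at 0.147 to 0.334 FPKM. No conclusion is drawn from the p-value of Phex, its voom pass or its place in the counts above. Bglap reached 0.5 FPKM in NC replicate 4 alone of its group and in replicates 2, 3 and 4 of 0 h p.r. It too met the filter only with the help of 0 h p.r., and none is drawn from its place among the 7 or in their median. The summed level of the bone cell markers was 305 to 469.9 FPKM in NC and 566 to 2182 FPKM in 0 h p.r., highest in replicate 4. Most of that sum was Spp1, the osteopontin gene, while Bglap and Sp7 were listed at 0 in NC replicate 2 and Sost in NC replicates 1 and 4. Adipocyte markers were lower in 0 h p.r. for 8 of 8 genes, of which 5 passed (Adipoq, Cidec, Lep, Lpl and Retn, against 0.894% of all tested genes as lower), with a summed level of 2663 to 5114 FPKM in NC and 880.4 to 1955 FPKM in 0 h p.r. Skeletal muscle markers, of which 6 of 8 had a row, summed to 3322 to 5319.7 FPKM in NC and 794 to 26550.0 FPKM in 0 h p.r., lowest in replicate 4 and highest in replicate 1, and none of the 6 passed. Of the 5 synovial lining markers, Cd55 passed as higher, at 18.8 ± 6.16 FPKM at rest and 51.8 ± 20.0 FPKM after running (log2 fold change 1.41, limma adjusted p 0.0326), against 1.80% of all tested genes as higher. It did not pass in voom (adjusted p 0.0692). The summed synovial level was 182 to 215 FPKM in NC and 227 to 272 FPKM in 0 h p.r. Thy1 was the largest part of this sum in each library, with means of 117 FPKM in NC and 113 FPKM in 0 h p.r. Cd55 alone had groups that did not overlap, while those of Pdpn, Clic5, Creb5 and Thy1 overlapped. Of the haematopoietic markers, 3 of 7 had a row and Mpo passed as lower (log2 fold change -1.45, limma adjusted p 0.0146), against 0.894% of all tested genes. Mpo met the filter only through NC, the group where it was higher, and was at 0.238 to 0.460 FPKM in 0 h p.r. No conclusion is drawn from its call. Hbb and Alas2 did not pass, with log2 fold changes of -0.35 and -0.44 and groups that overlapped. The summed haematopoietic level was 159 to 603 FPKM in NC and 135 to 501 FPKM in 0 h p.r. The part of these tissues in the levels of the fibrocartilage genes was not tested.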

How the data were processed

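The deposited table gives FPKM per gene and library, which the authors made from stranded polyA libraries, and per the submitters' processing notes HISAT2 2.1.0, featureCounts 1.6.3, DESeq2 1.30.1 and the Rnor_6.0 build were used. The table also holds the authors' own log2 fold changes, p-values and adjusted p-values, which were not used. The values were already scaled between libraries, with median-ratio factors of 0.998 to 1.016 and FPKM sums of 554130 to 900138. FPKM values were whole multiples of 1 read (tolerance 0.02) for 99.99% of 15590 genes, and these recovered reads gave the depth and were analysed with voom.

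Genes with at least 0.5 FPKM in at least 4 libraries were tested with limma 3.58.1 (R 4.3.3, trend, two-sided) on log2(FPKM + 0.5), a scale that understates changes of low genes. P-values were adjusted by Benjamini-Hochberg over all tested genes. A call needed an adjusted p under 0.05 and a fold of at least 2, the thresholds that the authors used with another test, on counts. Intervals are 95%. The fit was tested on simulated data. Tables were made with Python 3.11.15, numpy 2.4.6 and pandas 2.3.3.

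The genes and lists were chosen with earlier results of these data known. All 10 genes were named and, in the lists of cartilage matrix genes and chondrogenic regulators, calls and the 4 largest log2 fold changes. Marker lists were given by counts and sums. Other genes named from the lists (Clec3a, Col11a1, Col11a2, Col9a1, Col9a2, Sox5, Phex, Spp1, Bglap, Sp7, Sost, Cd55, Mpo, Hbb, Alas2 and the called adipocyte genes) were chosen after their values were seen. Alternatives covered the pseudocount, filter, scaling, replicate block, weights, voom and leaving out libraries. Promoter windows are on GRCr8, while the table is on Rnor_6.0, so no position was taken from one to the other.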

Additional observations from a re-analysis of the deposited data

Results flagged for a closer look

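Sox9 in 0 h p.r. replicate 4 stood apart from the other 3 libraries of its group, at 25.1 FPKM against 8.08 to 10.2 FPKM. The gap to the nearest library was 0.875 of the whole range of the group, above the 95% critical value of Dixon's test for 4 samples. It was the 1 value of this kind among 18 groups (9 genes in either condition) on the FPKM scale, and on the log2 scale the same groups gave none. Chance gives about 1 in 20 groups.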

How the results depend on the processing

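All 9 genes had a log2 fold change above 0 under each of the 19 alternatives, which is 171 of 171 values, and 1 of these was called. The changed filters, the restriction to protein-coding genes and the replicate block left these log2 fold changes as in the main fit. The other alternatives reused the same libraries, so the 171 values are not independent. With the replicate number as a block, 1 gene was called, Cilp (limma adjusted p 0.0402), with 1 other cartilage gene, Col9a3 (0.0395, while Mia was at 0.0666), and 212 genes in all. The labels do not say whether the numbers pair the libraries. Same-numbered libraries had correlations of -0.141 to 0.0717, against -0.249 to 0.234 for other pairs. These values do not settle whether the libraries were paired. Without the fold threshold 793 genes were called, against 374, and none of the 9. Leaving out single libraries gave 195 to 516 genes in all, lowest when replicate 2 of 0 h p.r. was absent, and 0 of the 9. Of the other cartilage genes, 2 were called in the main fit. At a mean FPKM of at least 2 the number was 1, since Mia, with means of 0.740 and 2.82 FPKM, was not tested there. It was 4 with array weights (505 genes in all). With single libraries left out it was 0 to 3, and 0 when replicate 2 of either group was absent. The cause of the other differences was not tested. Voom moved the median log2 fold change of all genes to -0.11. Leaving out NC replicate 2 and 0 h p.r. replicate 4 together was chosen after seeing the data. Depth limits the lowest values, such as Mia at 2 to 15 reads in NC.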
